A study of Vulpes lagopus with 12 samples.

Results

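Selenoproteins carry selenocysteine, the selenium analogue of cysteine, in their chain, and many of them use it to reduce peroxides, oxidised methionine or disulfides. Mercury binds selenium with very high affinity, and selenoenzymes are among its known protein targets. The deiodinases, also selenoproteins, activate and inactivate thyroid hormone, whose handling is a known target of polychlorinated biphenyls (PCBs). The genes described here are 10 selenoproteins of mercury and thyroid biology, taken as every probe set whose single gene symbol in the probe annotation was one of them. Of the 10, 9 had such a probe set (GPX1, GPX3, SELENOP, MSRB1, DIO1, SELENOW, SELENOK, SELENOS and SEPHS2), with 17 probe sets in all, out of 15115 genes and 42924 tested probe sets. SELENOT, a small redox protein of the endoplasmic reticulum, had none.

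RNA labelled as blood was hybridised to a dog expression array, the Affymetrix Canine Genome 2.0. There were 2 groups: 1 array titled as a canine control, and 11 arrays of Arctic foxes (Vulpes lagopus), free-ranging animals according to the series title, whose blood cells the design statement says were examined for PCBs and mercury. All 12 arrays carry the labels Vulpes lagopus, blood cells and blood, so the RNA behind the control is known only from its title. The exposure of single foxes is not in the labels, so the foxes were not divided by exposure, and foxes are numbered 1 to 11 in the order of the series. No label states that the foxes were separate animals, and p-values measure the spread between these samples.

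Values are on a log2 scale, so a difference of 1 is a 2-fold change of signal. The table gave no detection call, so a low value may be background, and levels of different probe sets are not set against each other. Some arrays stood apart from the rest. On the GAPDH 3' minus middle difference, a measure of how well signal reaches inward from the 3' end of a transcript, foxes 9, 10 and 11 lay between 0.42 and 1.08 and foxes 1 to 8 between 2.56 and 3.19, while the control stood at -0.08. For actin the same difference was 0.16 to 0.26 in foxes 9, 10 and 11 and 2.14 to 5.21 in foxes 1 to 8. The control, at 2.54 on actin, lay inside the range of foxes 1 to 8. On EF1A foxes 9, 10 and 11 (3.06 to 3.73) overlapped foxes 1 to 8 (2.41 to 3.43), with the control at 1.99. The SD over the probe sets of an array was 1.60 to 1.79 in foxes 1 to 8. It was 1.93 to 2.02 in foxes 9, 10 and 11 and 2.11 on the control. The part of this wider spread in the differences below was not tested. On fox 2 the hybridisation spike bioB stood at 11.85, above the other foxes (8.60 to 10.20). The canine control carried strong liver and muscle signal: 9 of 12 liver genes and 7 of 9 skeletal muscle genes were higher than in the foxes.

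The control array against the foxes shows which of these genes gave signal apart from the fox levels. By its title the control is canine, and the probes were made for dog. Species, match of fox RNA to the probes and tissue content thus cannot be told apart in these differences. Of the 9 genes, 5 were higher on the control (SELENOP, DIO1, SEPHS2, SELENOK and SELENOS), 1 was lower (MSRB1), and GPX1, GPX3 and SELENOW did not pass the test. The test was limma with Benjamini-Hochberg adjustment over all 42924 probe sets and a threshold of 0.05. It called 18.5% of all genes higher on the control and 44.6% lower (63.2% in either direction). The median log2 difference was 1.55 over the 9 genes and -0.53 over all genes. This split depended on the scaling. After quantile normalization again, 3 of the 9 were higher (SELENOP, DIO1 and SEPHS2) and 3 lower (MSRB1, GPX1 and SELENOW), with a median of 0.56, beside 16.4% higher and 33.2% lower and a median of -0.41 over all genes. With each array centred on its own median, 5 were higher and 0 lower by limma, with a median of 1.82, beside 21% higher and 26% lower and a median of -0.26 over all genes. For 7 of the 9 the control lay outside all 11 foxes, as for 77.9% of all genes.

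**Figure D1:**
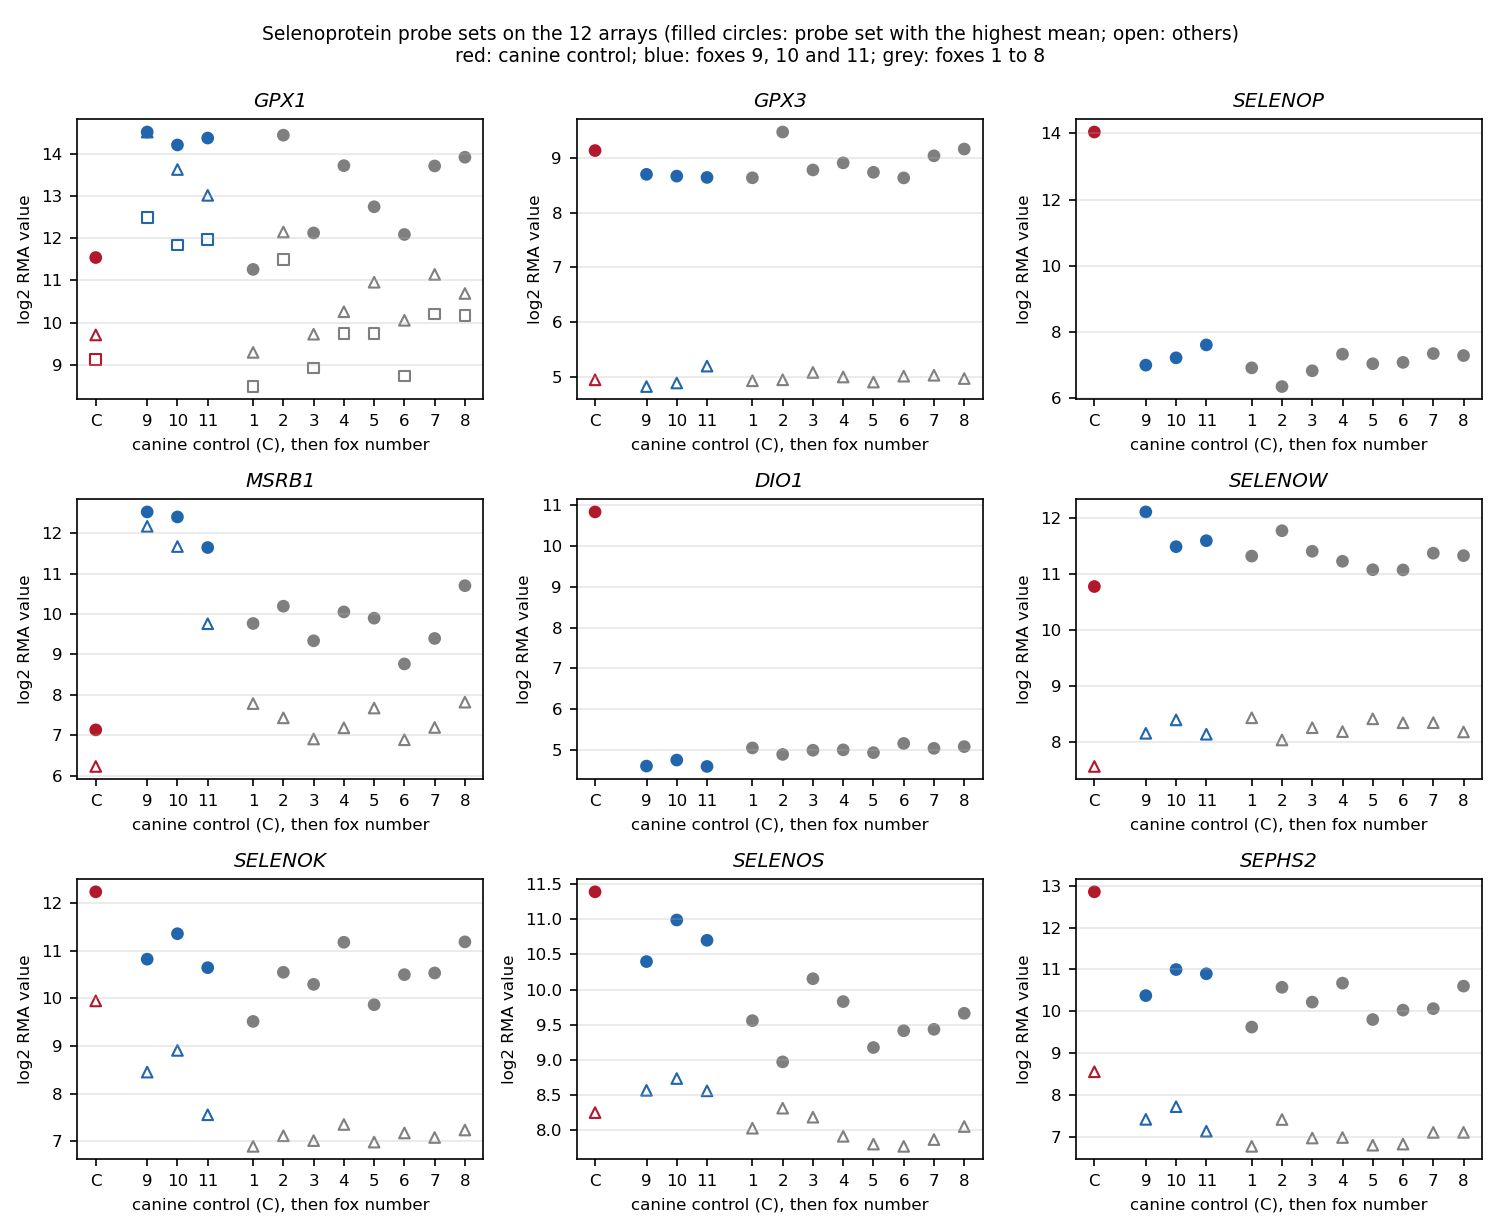
Log2 RMA value (y axis) of each selenoprotein probe set on the canine control (C, red), foxes 9, 10 and 11 (blue) and foxes 1 to 8 (grey). Filled circles are the probe set with the highest mean, open triangles and squares the other probe sets of the gene. SELENOP and DIO1 stand far above all foxes on the control, and MSRB1 is highest in foxes 9, 10 and 11.

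Among the secreted and hormone-related members, SELENOP and DIO1 differed most and GPX3 hardly at all. SELENOP is the plasma protein that carries selenium from the liver to other organs. It stood at 14.04 on the control, against a lowest of 6.35, a median of 7.08 and a highest of 7.61 in the foxes. The control was thus above every fox, by 6.94 over the fox mean (SE 0.33, adjusted p by limma 2.57e-09). DIO1, the deiodinase of liver, kidney and thyroid that turns thyroxine into the active hormone, stood at 10.84 on the control, against a lowest of 4.60, a median of 4.996 and a highest of 5.16 in the foxes. Its difference was 5.92 (SE 0.20, adjusted p by limma 1.10e-10). The fox values of DIO1 spanned less than 1 log2 unit, and without foxes 9, 10 and 11 the differences were 7.01 for SELENOP and 5.81 for DIO1.

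GPX3, the plasma glutathione peroxidase made largely in the kidney, stood at 9.14 on the control, against a lowest of 8.64, a median of 8.74 and a highest of 9.48 in the foxes. The control lay inside the fox range, with a difference of 0.28 (SE 0.27, adjusted p by limma 0.377), and after quantile normalization of the arrays again the sign turned (-0.22). The second GPX3 probe set was nearly flat, at 4.94 on the control and between 4.82 and 5.19 in the foxes.

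Of the lists for organs that make these proteins, the liver list was also higher on the control, while most kidney and thyroid genes were not. The 12 liver genes had a mean level of 11.98 on the control, against 7.36 to 7.66 in the foxes, with 9 called higher and 1 lower and a median difference of 5.14. The albumin gene ALB alone differed by 8.71. Of 8 kidney genes 1 was higher and 5 were lower (mean level 8.55 on the control, 8.26 to 8.75 in the foxes); the higher one was UMOD, the urinary protein of the loop of Henle, at 12.71 against 7.63 to 8.65. Of 8 thyroid genes 2 were higher and 5 lower (mean level 7.27 on the control, 7.41 to 7.80 in the foxes), and thyroglobulin (TG), which defines that gland, was lower (6.53 against 7.60 to 8.42). The median difference was -0.68 for the kidney and -0.77 for the thyroid list, beside -0.53 and 44.6% called lower over all genes. The parts of liver, kidney and thyroid RNA in the SELENOP and DIO1 differences were not tested.

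Of the cytosolic enzymes, MSRB1 was lower on the control, while the main probe sets of GPX1 and SELENOW did not pass the test. MSRB1 reduces oxidised methionine in proteins. It stood at 7.13 on the control, against a lowest of 8.77, a median of 10.05 and a highest of 12.53 in the foxes. The control was below all foxes, by -3.30 (SE 1.19, adjusted p by limma 0.0299). Without foxes 9, 10 and 11, in which MSRB1 was highest, the difference was -2.63 with an adjusted p of 0.00162 by limma. The call was lost when each array was centred on its own median (-3.03, limma adjusted p 0.0584) and with both probe sets averaged (-2.74, adjusted p 0.114); the second probe set, at 6.23 on the control and between 6.89 and 12.17 in the foxes, was not called. White cell lists were also lower on the control: 5 of 7 neutrophil genes and 5 of 8 monocyte genes were called lower and 0 higher, with mean levels of 6.40 (foxes 9.03 to 11.44) and 8.54 (foxes 9.55 to 11.12). In blood RNA, fewer cells of a type and less RNA per cell cannot be told apart, and the part of cell content in the MSRB1 difference was not tested. Of the other blood lists, 7 of 9 erythroid genes, 4 of 7 platelet genes, 5 of 10 T cell genes and 7 of 7 B cell genes were lower, and 1 erythroid and 1 T cell gene were higher. The T cell and platelet shares lie near the 44.6% of all genes called lower, and the T cell median of -0.57 near that of all genes (-0.53). The platelet median of -1.60 was further below it, with a mean level of 6.41 on the control, against 7.57 to 8.98 in the foxes.

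GPX1, the general glutathione peroxidase of the cytosol and a major enzyme of red cells, stood at 11.54 on the control, against a lowest of 11.26, a median of 13.72 and a highest of 14.52 in the foxes. Only fox 1 lay below the control. The difference of -1.83 had an SE of 1.07 and did not pass (adjusted p by limma 0.150), though it did after quantile normalization again (-2.85, adjusted p by limma 0.00144). The other GPX1 probe sets ran the same way, with differences of -1.70 and -1.22, and neither was called.

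SELENOW, a small thioredoxin-like protein abundant in muscle, stood at 10.78 on the control, against a lowest of 11.07, a median of 11.37 and a highest of 12.11 in the foxes. The control was below every fox, but the difference was only -0.66 (SE 0.30, adjusted p by limma 0.0747), near the median of -0.46 over all probe sets. Its second probe set gave -0.70 with a smaller SE of 0.15 and was called (adjusted p by limma 0.00246). The main probe set was called lower without fox 9 (-0.59, adjusted p by limma 0.0395), without foxes 9, 10 and 11 (-0.55, adjusted p 0.0463), after quantile normalization again (-1.66, adjusted p 0.0125) and with both probe sets averaged (-0.68, adjusted p 0.00155). Skeletal muscle genes ran opposite to it: 7 of 9 were higher and 1 lower, with a mean level of 11.64 on the control, against 7.34 to 7.55 in the foxes.

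The members of the endoplasmic reticulum and of selenium metabolism were higher on the control by smaller amounts. SEPHS2 makes selenophosphate, the selenium donor for selenocysteine, and is itself a selenoprotein. It stood at 12.85 on the control, against a lowest of 9.63, a median of 10.38 and a highest of 11.00 in the foxes, a difference of 2.50 (SE 0.43, adjusted p by limma 4.67e-04). The control was above every fox. The second SEPHS2 probe set gave 1.44 (SE 0.29) and was also called.

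SELENOK is a membrane protein of the endoplasmic reticulum that works with the palmitoyl transferase ZDHHC6 and is known from immune cells. It stood at 12.24 on the control, against a lowest of 9.52, a median of 10.55 and a highest of 11.36 in the foxes, a difference of 1.65 (SE 0.53, adjusted p by limma 0.0184), with no overlap. Its second probe set gave 2.51 (SE 0.62) and was called too. After quantile normalization again the main probe set gave 0.58, which was not called (adjusted p by limma 0.204).

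SELENOS, a membrane protein that takes part in the export of misfolded proteins from the endoplasmic reticulum, stood at 11.39 on the control, against a lowest of 8.97, a median of 9.66 and a highest of 10.99 in the foxes. The control was above all foxes by 1.55 over their mean (SE 0.61, adjusted p by limma 0.0437), the highest adjusted p among the 6 calls. The call was lost without any 1 of foxes 1, 4, 5, 6, 7 and 8 (differences from 1.48 to 1.55, adjusted p by limma from 0.0521 to 0.0582) and after quantile normalization again (0.56, adjusted p 0.251). It was also lost with both probe sets averaged (0.82, adjusted p by limma 0.118). Without foxes 9, 10 and 11, which had the highest SELENOS among the foxes, it was 1.87 with an adjusted p of 9.01e-04 by limma. The second SELENOS probe set did not follow: 8.25 on the control lay inside its fox range of 7.77 to 8.73, with a difference of 0.09.

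**Figure D2:**
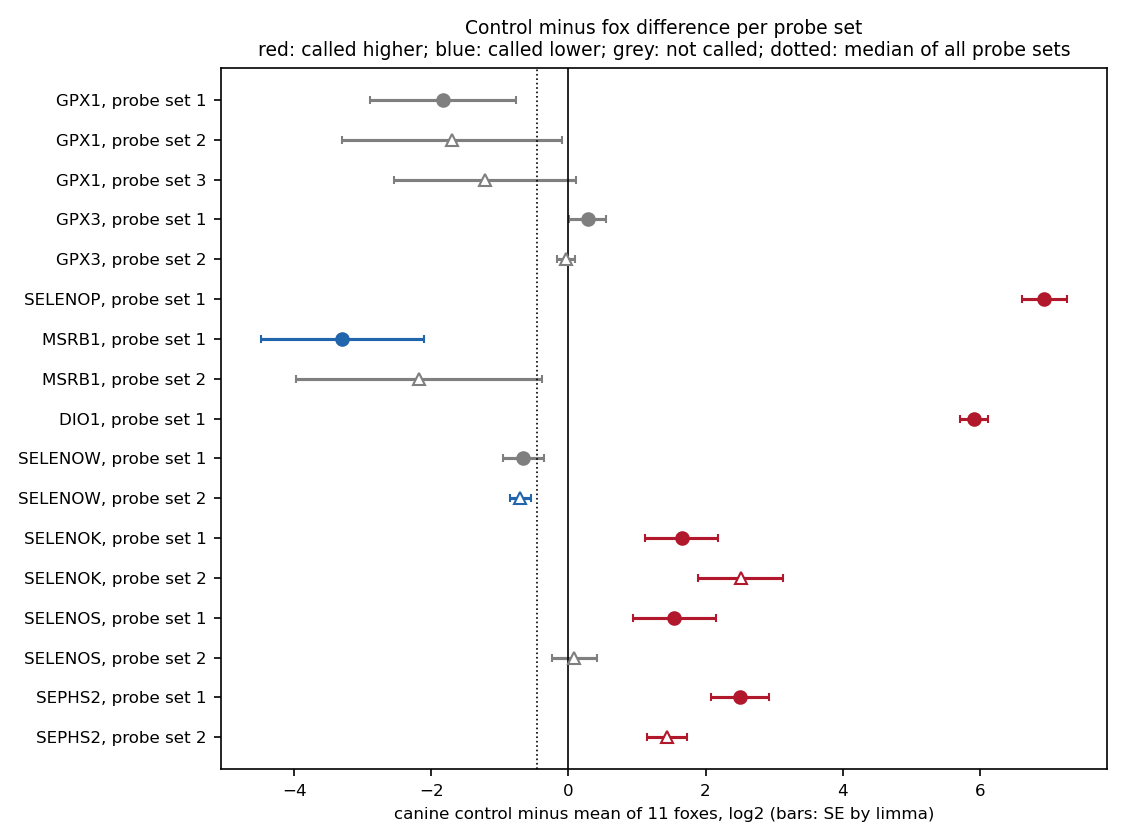
Canine control minus the mean of 11 foxes on the log2 scale (x axis) for each of the 17 probe sets, with SEs by limma as bars. Red marks probe sets called higher, blue called lower and grey not called; filled circles are the probe set with the highest mean of a gene, and the dotted line is the median of all probe sets (-0.46). Of the 17, 7 were called higher and 2 lower.

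Over the 17 probe sets, 7 were called higher, 2 lower and 8 not, beside 18.9% higher and 42.1% lower among all probe sets (61.0% in either direction). The control lay outside all foxes in 11 of the 17, as in 77.0% of all probe sets. Probe sets of a gene disagreed on the call for MSRB1, SELENOW and SELENOS. Without foxes 9, 10 and 11, the control against the other 8 foxes called 7 of the 9 genes, the same 6 and SELENOW, with differences of 1.78 for SELENOK, 2.65 for SEPHS2, -1.46 for GPX1 and 0.21 for GPX3. Without fox 2 alone, 6 were called.

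The rest of the selenium pathway showed no common direction on the control. Its counts stand beside 18.5% of all genes called higher and 44.6% lower, with a median difference of -0.53. Of 15 other selenoproteins 12 were measured, and 4 were higher, 3 lower and 5 not called, with a median difference of -0.34. The 4 called genes that differed most were SELENOH, a nuclear redox protein (11.52 on the control, 9.22 to 10.40 in the foxes, difference 1.85), GPX2, the glutathione peroxidase of gut epithelium (10.14, 8.31 to 8.73, difference 1.60), SELENOF, a partner of glycoprotein folding in the endoplasmic reticulum (10.69, 8.88 to 10.31, difference 1.41), and SELENOV (6.26, 6.93 to 7.78, difference -1.08). Adjusted p-values by limma for these 4 lay between 4.64e-06 and 0.0084.

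Of 13 genes that insert or supply selenium, 12 were measured, with 4 higher, 3 lower and 5 not called and a median of -0.17. LRP2, the receptor through which the mouse kidney takes up SELENOP, was higher (8.28 on the control, 6.07 to 7.12 in the foxes, difference 1.78), as were SEPSECS, the enzyme that completes selenocysteine on its tRNA (difference 1.41), and SEPHS1, the relative of SEPHS2 without selenocysteine (difference 1.08). TRNAU1AP, which associates with that tRNA, was lower (8.56 on the control, 9.20 to 10.36 in the foxes, difference -1.18).

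Of 8 partners of SELENOK and SELENOS in the endoplasmic reticulum, 1 was higher (the derlin DERL2, 0.93) and 1 lower (the ubiquitin ligase SYVN1, -0.95), and 6 were not called, with a median of 0.82. Of 6 relatives that use cysteine in place of selenocysteine, 1 was higher (GPX8, 2.00) and 4 were lower, among them GPX5 (-1.28), MSRB3 (-0.64) and GPX7 (-0.55), with a median of -0.54. That median and the differences of MSRB3 and GPX7 lie near the median of -0.53 over all genes.

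The spread between foxes shows which members differed among the blood samples. An SD of at least 0.5 over the 11 foxes was reached by 4 of the 9 genes, MSRB1 (SD 1.26), GPX1 (1.13), SELENOS (0.64) and SELENOK (0.56), beside 18.3% of all genes. Within foxes 1 to 8 it was reached by 3, GPX1 (SD 1.11, n = 8), MSRB1 (0.60) and SELENOK (0.58), beside 9.61% of all genes. The spread of GPX1 was therefore nearly as wide without foxes 9, 10 and 11, and that of MSRB1 was much narrower. DIO1 (0.19), GPX3 (0.27), SELENOW (0.31), SELENOP (0.33) and SEPHS2 (0.44) spread less over the 11.

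GPX1 had its lowest values in foxes 1 (11.26), 6 (12.09) and 3 (12.13) and its highest in foxes 9 (14.52) and 2 (14.45). Fox 5 stood at 12.75, foxes 7, 4 and 8 between 13.72 and 13.92, and foxes 10 and 11 at 14.21 and 14.38. Foxes 9, 10 and 11 overlapped the others on this probe set only through fox 2. SEPHS2 and SELENOK both had their lowest value in fox 1 (9.63 and 9.52), their next lowest in fox 5 (9.80 and 9.87) and their highest in fox 10. SELENOP was lowest in fox 2 (6.35) and highest in fox 11 (7.61), with the other foxes between 6.83 and 7.35.

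Foxes 9, 10 and 11 all lay on one side of foxes 1 to 8 in 3 of the 9 genes, above in MSRB1 and SELENOS and below in DIO1, beside 28.8% of all genes (14.2% above and 14.6% below). MSRB1 stood at 12.53 in fox 9, 12.41 in fox 10 and 11.65 in fox 11, and the other 8 foxes ran from 8.77 to 10.70, a gap of 0.94 between the nearest foxes. SELENOS stood at 10.40, 10.99 and 10.70 in these foxes, and foxes 1 to 8 ran from 8.97 to 10.15. DIO1 stood at 4.61, 4.76 and 4.60, against 4.89 to 5.16. The counts are close to the share of all genes, and no test is given, since these 3 arrays were set apart by their values.

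Counted by probe set, 8 of the 17 had these foxes on one side, 7 above and 1 below, beside 27.2% of all probe sets (12.6% above and 14.6% below). The gap was widest in the second MSRB1 probe set, at 12.17, 11.67 and 9.76 in the same order, while the other foxes ran from 6.89 to 7.82. For GPX1 the main probe set overlapped, but the second stood between 13.02 and 14.52 in these foxes, against 9.30 to 12.15 in foxes 1 to 8. For SELENOK the second stood between 7.56 and 8.91, against 6.90 to 7.35.

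The probe sets of a gene thus moved by unequal amounts between the arrays, and not all in the same direction. The main minus the second GPX1 probe set was 0.00 in fox 9, 0.58 in fox 10 and 1.36 in fox 11, while foxes 1 to 8 ran from 1.79 to 3.46 and the control stood at 1.84. For MSRB1 it was 0.36, 0.73 and 1.89, which fox 11 alone brought into the range of foxes 1 to 8 (1.88 to 2.89), with 0.91 on the control. For SELENOK it was 2.37, 2.45 and 3.09, while foxes 1 to 8 ran from 2.62 to 3.95 and the control stood at 2.29. For SEPHS2 it was 2.95, 3.27 and 3.76, inside the range of foxes 1 to 8 (2.85 to 3.69) but for fox 11, which was above it. SELENOS and SELENOW ran the other way. For SELENOS it was 1.83, 2.26 and 2.14, with foxes 10 and 11 above all the others (0.66 to 1.97), and 3.14 on the control. For SELENOW it was 3.96, 3.10 and 3.46, with fox 9 above the others (2.67 to 3.75), and 3.22 on the control. For GPX3 it was 3.89, 3.79 and 3.45, with fox 11 alone below foxes 1 to 8 (3.63 to 4.54), and 4.20 on the control. The main minus the third GPX1 probe set was 2.02, 2.38 and 2.40, with 2.41 on the control. Foxes 1 to 8 ran from 2.78 to 3.97 on it. Foxes 9, 10 and 11 are those with the low GAPDH and actin 3' minus middle differences, while EF1A overlapped. The part of these array measures in the fox values was not tested.

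**Figure D3:**
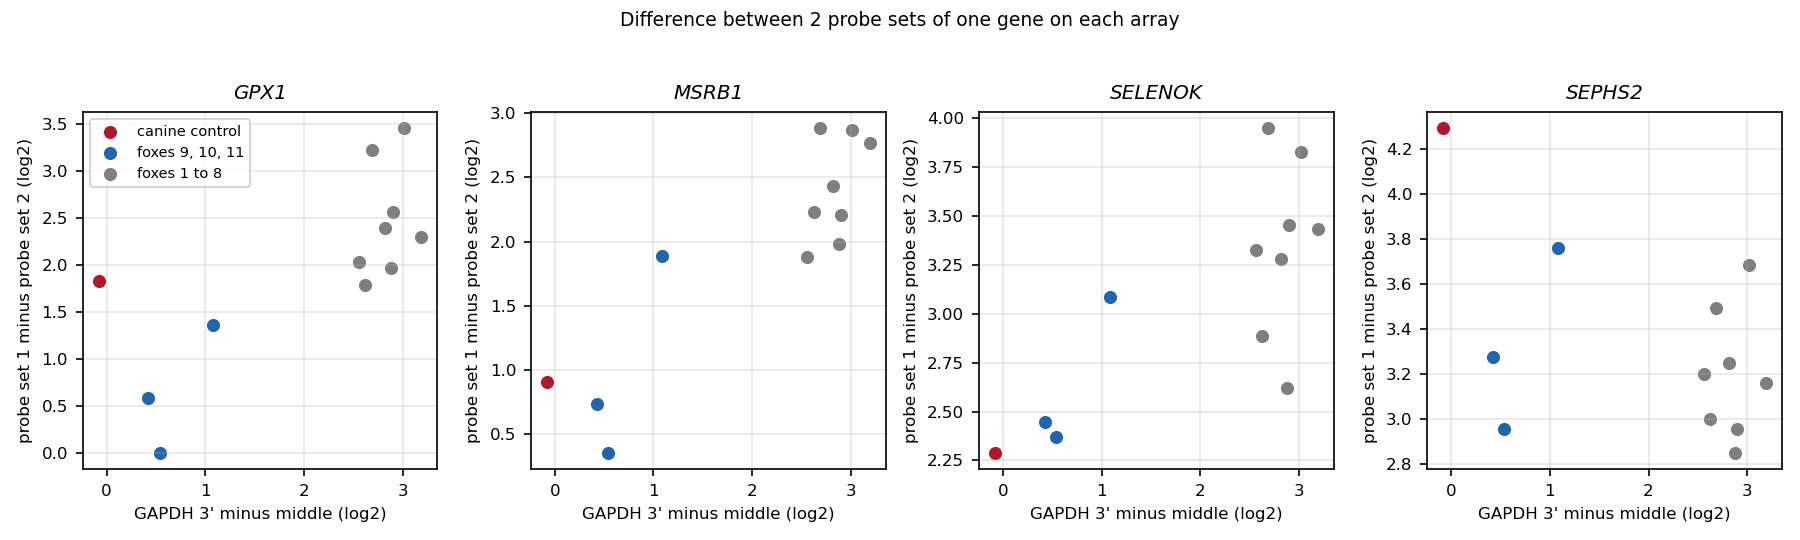
Main minus second probe set of GPX1, MSRB1, SELENOK and SEPHS2 (y axis, log2) against the GAPDH 3' minus middle difference of the same array (x axis, log2). Red is the canine control, blue foxes 9, 10 and 11, grey foxes 1 to 8. In GPX1 foxes 9, 10 and 11 lie at 0.00 to 1.36, below foxes 1 to 8 (1.79 to 3.46), while in SEPHS2 foxes 9 and 10 lie among them and fox 11 just above (3.76 against at most 3.69).

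Of the white cell lists, the monocyte and T cell means stood higher in these foxes, the neutrophil means overlapped and the B cell mean was lower. The mean level of 8 monocyte genes was 10.85 to 11.12 in these 3, against 9.55 to 10.24 in the other 8 foxes. Of the 8 genes, 5 were above in all 3. Among all genes 14.2% were above in all 3, the share beside the counts of each list here. That of 7 neutrophil genes was 10.13 to 11.44 against 9.03 to 10.31, with 3 above. That of 9 erythroid genes was 8.09 to 8.31 against 7.74 to 8.65, with 0 above. The T cell mean was 8.51 to 8.68 against 7.63 to 8.07, with 5 of 10 genes above, and the platelet mean 8.65 to 8.98 against 7.57 to 8.59, with 3 of 7 above. The B cell mean was 6.58 to 6.82 against 6.85 to 6.99, with 0 of 7 genes above. The part of cell content in the MSRB1 values was not tested.

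Outside the 9 genes, 3 genes of the 4 pathway lists stood at least 1 log2 unit apart between these foxes and the others. The share of all genes with such a gap was not counted. With any gap, 2 of 12 other selenoproteins, 1 of 12 supply genes, 4 of 8 partners and 1 of 6 cysteine relatives lay above. Below lay 4, 1, 0 and 1 in the same order, beside 14.2% above and 14.6% below among all genes. TXNRD1, the cytosolic thioredoxin reductase and a selenoenzyme inhibited by mercury, lay between 10.40 and 11.60 in foxes 9, 10 and 11, above all the others (8.54 to 9.18). MSRA, the reductase of the other methionine sulfoxide form, lay between 13.27 and 13.96, against 10.07 to 12.08. ZDHHC6, the partner of SELENOK, lay between 10.04 and 10.52, against 7.79 to 8.47.

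Within foxes 1 to 8, members were set against blood cell list scores, each the mean of a list's log2 values centred on these foxes. GPX1 had its highest r with the erythroid list, GPX3 with the platelet list, and SEPHS2 and SELENOK with the monocyte list. Among 63 pairs of a gene with 6 cell scores or the GAPDH measure, these 4 passed Benjamini-Hochberg adjustment of two-sided exact permutation tests. At an unadjusted p under 0.05 there were 15. The same genes had r values nearly as high with other lists, none of which passed: GPX1 had 0.83 with the monocyte, 0.78 with the platelet and 0.77 with the neutrophil score, GPX3 had 0.83 with the neutrophil and 0.82 with the erythroid score, SEPHS2 had 0.86 with the neutrophil and 0.85 with the platelet score, and SELENOK had 0.73 with the neutrophil score. Whether a gene's r differed between lists was not tested.

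GPX1 and the erythroid score had a Pearson r of 0.93 (exact permutation p = 5.95e-04, adjusted 0.0187, n = 8) and a Spearman rho of 0.86 (exact permutation p = 0.0107, adjusted 0.106). Foxes 1 and 3 were low on both, with scores of -0.46 and -0.36, and fox 2 was high on both, with a score of 0.45. Without foxes 1 and 3, the farthest from the median score, r was 0.85. With ALAS2 alone, which starts haem synthesis in developing red cells, r was 0.94 (exact permutation p = 6.45e-04, adjusted 0.0203). ALAS2 is in the list and spread most of its 9 measured genes (SD 1.53 over the 11 foxes, the others 0.12 to 0.41). The score thus leans on ALAS2, and this r is not separate support. After quantile normalization again GPX1 and the erythroid score had an r of 0.92 (exact permutation, adjusted p = 0.0234). With any 1 of the 8 foxes left out r stayed between 0.88 and 0.96, but only without fox 6 did the adjusted p stay under 0.05 (0.0469, exact permutation over 7 foxes). Without fox 2, the array with the high hybridisation spike, r was 0.90 (exact permutation, adjusted p = 0.116).

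SEPHS2 and the monocyte score had an r of 0.96 (exact permutation p = 3.47e-04, adjusted 0.0187) and a rho of 0.95 (exact permutation p = 0.00114, adjusted 0.0359), and r was 0.93 without foxes 4 and 8. SELENOK and the monocyte score had an r of 0.88 (exact permutation p = 0.00211, adjusted 0.0443) and a rho of 0.98 (exact permutation p = 3.97e-04, adjusted 0.0250), and r was 0.69 without foxes 4 and 8. SELENOK with both probe sets averaged had an r of 0.73 (exact permutation, adjusted p = 0.256). Neither pair held after quantile normalization again, where r was 0.61 for SEPHS2 and 0.56 for SELENOK (exact permutation, adjusted p = 0.543 and 0.563). GPX3 and the platelet score had an r of 0.88 (exact permutation p = 0.00290, adjusted 0.0457) and a rho of 0.90 (exact permutation p = 0.00456, adjusted 0.0719). Without foxes 2 and 6 its r was 0.79, and after quantile normalization again 0.77 (exact permutation, adjusted p = 0.205). With 1 fox left out, the GPX3 pair had an adjusted p of at least 0.065 in each case, and the SELENOK pair stayed under 0.05 only without fox 6 (0.0469, exact permutation). The SEPHS2 pair stayed under 0.05 without fox 3 (0.025) or fox 6 (0.0469), again by exact permutation.

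The SD over the probe sets of an array, which ran from 1.60 to 1.79 in foxes 1 to 8, moved with some of the same measures. It was set against the 9 genes and 6 scores as a further family of 15 pairs, a choice made after the values above were seen. Its r was 0.99 with the monocyte score (exact permutation, adjusted p = 0.00112), 0.96 with SEPHS2 (adjusted 0.00577), 0.89 with SELENOK (adjusted 0.00769) and 0.85 with GPX1 (adjusted 0.0386). It was 0.90 with the platelet score (exact permutation, adjusted p = 0.0182) and 0.82 with the neutrophil score (adjusted 0.0386). With these, 6 of the 15 pairs passed. For the erythroid score r was 0.60 (exact permutation, adjusted p = 0.202), and for GPX3 it was 0.77 (adjusted 0.0505). The part of this array measure in the pairs above was not tested.

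**Figure D4:**
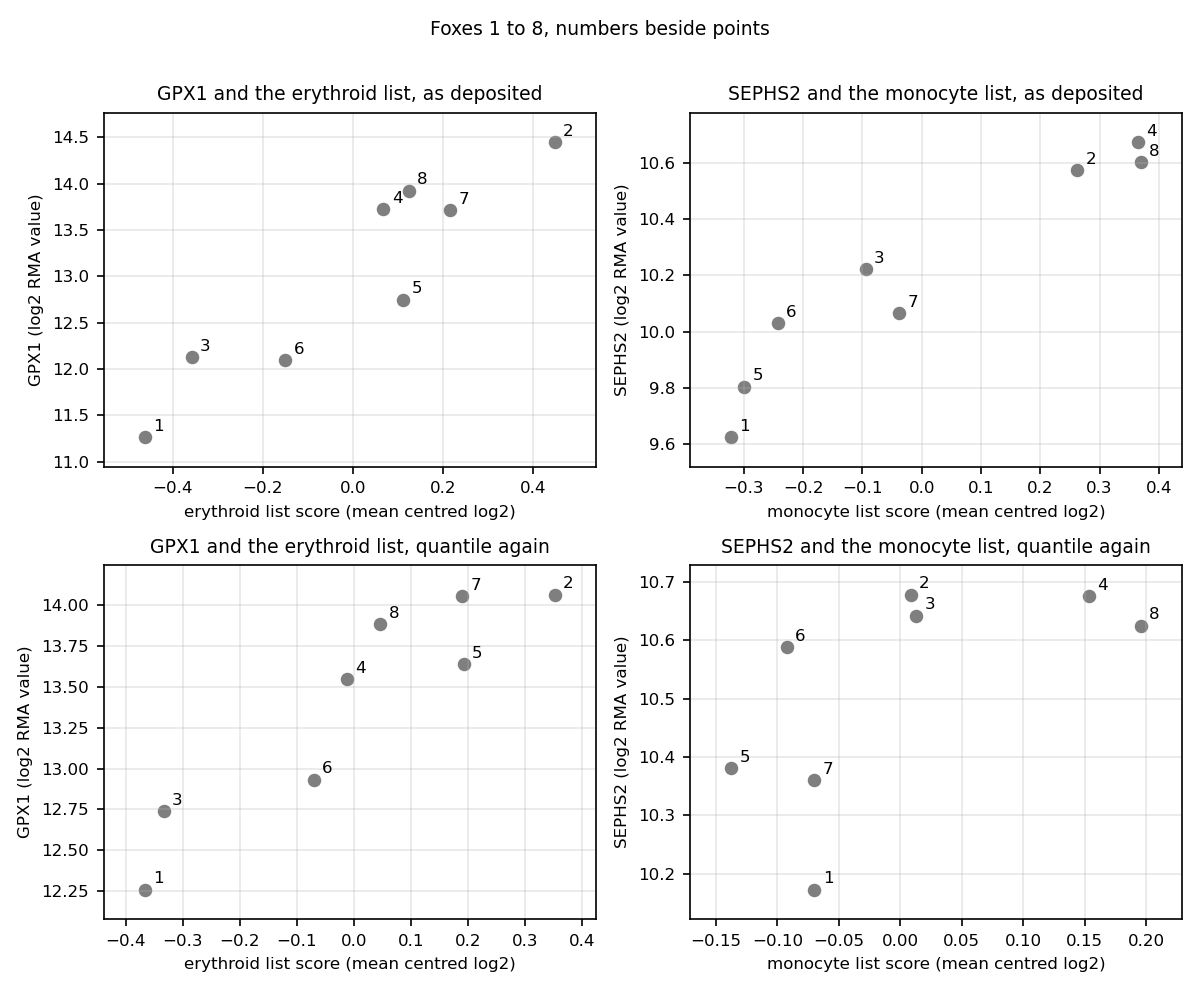
GPX1 against the erythroid list score (left) and SEPHS2 against the monocyte list score (right) in foxes 1 to 8, numbered, on deposited values (top) and after quantile normalization again (bottom). The y axis is the log2 RMA value and the x axis the mean centred log2 value of the list. The GPX1 pair has an r of 0.93 above and 0.92 below, the SEPHS2 pair 0.96 above and 0.61 below.

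The 9 genes were also paired with each other within foxes 1 to 8. Of 36 pairs 0 passed adjustment of the exact permutation test for Pearson or Spearman correlation, and 6 had an unadjusted p under 0.05. The closest were SEPHS2 with SELENOK (r 0.91, rho 0.90, exact permutation p = 0.00213, adjusted 0.0554) and GPX3 with GPX1 (r 0.89, rho 0.93, exact permutation p = 0.00308, adjusted 0.0554). Without the 2 foxes farthest from the median of SELENOK (foxes 1 and 8) the first had an r of 0.82, and without those farthest from the median of GPX1 (foxes 1 and 2) the other had 0.89. SELENOP, DIO1, SELENOS and MSRB1 were in none of the pairs with an unadjusted p under 0.05.

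For the 3 members with the widest spread, the genes most like them were read over foxes 1 to 8 among 7330 genes of above-median level, as a description. The genes closest to GPX1 were SH3BP2, UQCRH and EIF1, each with an r of 0.99, and 269 genes had an r over 0.9 with it. Those closest to MSRB1 were SLAIN2, ITGA5 and DNPH1 (r of 0.93 each), with 7 genes over 0.9, and those closest to SELENOS were PGRMC1, MAPK1IP1L and SNAP47 (r of 0.95, 0.95 and 0.95), with 8 over 0.9. These 8 points share their arrays, so a pattern of the whole array enters every such r.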

How the data were processed

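RNA of 12 samples, all labelled as blood, was hybridised to Affymetrix Canine Genome 2.0 arrays. The deposited values are log2 values per probe set; per the submitters' processing notes the authors used RMA and Affymetrix Expression Console. Tool versions, and joint or separate normalization of the arrays, were not given in these sources. The number of arrays limits the precision.

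The main probe set of a gene was the one with the highest mean level on the 12 arrays. The 111 Affymetrix control probe sets served only as quality measures. The control was compared with the 11 foxes by limma 3.58.1 in R 4.3.3; the lone control is assumed to vary like the foxes, and an exact permutation of 1 against 11 cannot go below 0.0833. Correlations used all 40320 orderings of foxes 1 to 8. The limma code and permutation code were tested on simulated data. The median control minus fox difference over all probe sets was -0.46 as deposited, -0.31 after quantile normalization again and -0.19 with arrays centred on their medians.

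Members, lists (4 of the pathway, 10 of marker genes) and tests were chosen with earlier results of these data known. All members were named whatever their value. From each pathway list, up to 4 called genes with the control outside all foxes were named, and genes with foxes 9, 10 and 11 at least 1 log2 unit apart. Of the probe sets, 29254 had 1 symbol, 439 several and 13231 none. Genes most like a member were sought among genes whose mean exceeded the median gene's.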

Additional observations from a re-analysis of the deposited data

How the results depend on the processing

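The control against the foxes called 26183 probe sets, 12802 when probe sets below the median mean were left out (fewer probe sets tested), 11816 when a log2 difference of 1 or more was also required, and 25001 to 27620 with 1 fox left out. It called 6 of the 9 genes (5 higher, 1 lower), and 5 to 7 with 1 fox left out. After quantile normalization again 3 were higher and 3 lower. SELENOP and SEPHS2 kept their direction and call in all 17 alternatives and DIO1 in all 16 of its own (it lies below the median mean), with 1 fox left out from 6.87 to 6.995 for SELENOP, from 2.43 to 2.57 for SEPHS2 and from 5.88 to 5.94 for DIO1. GPX3 reversed to -0.22 after quantile normalization again; the cause was not tested. The spread minimum (SD 0.5) was passed by 4 genes, by 2 after quantile normalization again and by 3 to 4 with 1 fox left out, and a minimum of 1 by 2. Foxes 9, 10 and 11 stood apart in 3 genes, or 8 probe sets counted singly. They stood apart in 2 genes after quantile normalization again and in 4 with the probe sets of a gene averaged. Of the gene and score pairs 4 passed, 2 after quantile normalization again and 2 with Spearman correlation. The count was 5 with arrays centred on their medians and 6 with the probe sets of a gene averaged. With 1 fox left out it was 0 to 4 by exact permutation over fewer foxes (0 without fox 1, 2, 4, 5, 7 or 8). Of the gene pairs 0 passed, and 0 to 1 with 1 fox left out (1 without fox 3). No paired analysis was possible because the control group has 1 array and replicate numbers only name the samples. The count by single probe sets, the ALAS2 pair and the array SD pairs were chosen after seeing the data.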
